A study of Mus musculus with 25 samples.

Results

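The subunits of the oxidative phosphorylation machinery were followed through the development of the mouse liver. Genes were taken by their symbols: all whose single annotated symbol begins with Nduf, Uqcr, Atp5, Cox4, Cox5, Cox6, Cox7 or Cox8, and Sdha, Sdhb, Sdhc and Sdhd. The rule gave 90 of the 18194 genes measured. By complex these were 36 subunits of complex I, 4 of complex II, 8 of complex III, 17 of complex IV and 17 of complex V, and 8 complex I assembly factors (symbols Ndufaf). Grouping followed the symbols, so Ndufa4, which is now assigned to complex IV, is counted under complex I, and Cox7a2l, a factor of respiratory supercomplexes, under complex IV.

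The livers came from random-bred C57/B6 mice, for which the labels name no treatment and no engineered allele. Fetal livers of embryonic days 11.5, 12.5, 13.5, 14.5, 15.5, 16.5, 17.5 and 18.5 (E11.5 to E18.5), livers of the day of birth (Day0) and of days 3, 7, 14 and 21 after birth, and livers of mature mice of 18 weeks (NL) were each pooled from 3 to 12 animals. This gave 14 pools and 25 arrays: 11 stages had 2 repeat arrays of the same pool, and E18.5, Day7 and Day14 had 1. Values are log2 probe intensities, so a difference of 1 is 2-fold, and the intensity of a probe set cannot be set against that of another gene's. A stage has a single pool, so the stages of a class stand in as its replicates, and the steps between 2 stages carry the technical spread of repeat arrays alone.

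Oxidative phosphorylation makes ATP at the inner mitochondrial membrane. Complex I takes electrons from NADH and complex II from succinate, coenzyme Q carries them to complex III, cytochrome c carries them to complex IV, where oxygen is reduced, and complex V uses the resulting proton gradient to make ATP. Most subunits are encoded in the nucleus, and assembly factors build them, together with subunits of the mitochondrial genome, into the complexes. In the liver the system powers gluconeogenesis and urea synthesis and burns the fatty acids that arrive with milk after birth, while the fetal liver is also the site of blood formation.

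Promoters are shown for 4 members on which the results below turn: Sdhb, which was low in fetal livers, Ndufaf4, which rose at birth, and Cox6b1 and Cox6b2, an isoform pair whose ratio changed. Each sequence runs from 250 bases before to 50 after the start of the gene, from RefSeq on GRCm38.p6. They lie at chr4:140961021-140961320 (plus strand, Sdhb), chr4:24897833-24898132 (plus strand, Ndufaf4), chr7:30626065-30626364 (minus strand, Cox6b1) and chr7:4753045-4753344 (minus strand, Cox6b2). Capitals mark matches to the ETS motif in Sdhb and, on the opposite strand, in Cox6b1, and overlapping matches to the NRF-1 motif on both strands in Ndufaf4.
Sdhb: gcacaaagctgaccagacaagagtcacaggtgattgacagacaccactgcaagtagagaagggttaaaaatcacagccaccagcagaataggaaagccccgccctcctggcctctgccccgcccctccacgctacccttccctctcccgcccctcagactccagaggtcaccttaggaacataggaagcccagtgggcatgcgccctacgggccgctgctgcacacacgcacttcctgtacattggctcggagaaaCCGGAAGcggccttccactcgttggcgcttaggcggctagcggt
Ndufaf4: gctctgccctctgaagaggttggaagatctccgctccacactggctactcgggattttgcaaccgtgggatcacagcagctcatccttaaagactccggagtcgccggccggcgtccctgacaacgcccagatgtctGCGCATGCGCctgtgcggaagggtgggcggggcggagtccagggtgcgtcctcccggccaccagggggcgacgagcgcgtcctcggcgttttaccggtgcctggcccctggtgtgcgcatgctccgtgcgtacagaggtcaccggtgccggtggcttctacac
Cox6b1: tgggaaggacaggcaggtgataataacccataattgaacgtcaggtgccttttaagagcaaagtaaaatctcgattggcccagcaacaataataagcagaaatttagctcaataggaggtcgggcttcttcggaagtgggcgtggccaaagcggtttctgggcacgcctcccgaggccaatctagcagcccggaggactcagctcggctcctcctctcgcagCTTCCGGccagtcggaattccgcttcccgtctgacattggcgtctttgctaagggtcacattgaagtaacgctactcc
Cox6b2: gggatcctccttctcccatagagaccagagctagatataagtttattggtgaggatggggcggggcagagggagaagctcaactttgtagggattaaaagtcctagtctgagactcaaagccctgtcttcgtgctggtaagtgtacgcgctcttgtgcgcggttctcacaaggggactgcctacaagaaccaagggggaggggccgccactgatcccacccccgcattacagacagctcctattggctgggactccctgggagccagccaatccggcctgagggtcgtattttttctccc
Motifs for 4 regulators of mitochondrial genes were searched on both strands in the 74 members with a promoter in the RefSeq table. The ETS motif CCGGAAG, bound by the GABP factor among others, was in 19 of the 74 (25.7%), against 14.98% of all 14453 genes with a promoter. The NRF-1 motif GCGCATGCG was in 9 (12.2% against 3.09%), and the YY1 motif AAGATGGCG in 7 (9.46% against 2.53%). The motif of the estrogen-related receptors, TCAAGGTCA, was in 2 (2.70% against 0.401%), Atp5g3 and Sdhd. No match to any of the 4 was found in the window of Cox6b2. These shares are descriptions of letters in a window and do not show binding.

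As deposited, the members moved largely together. Their median deviation from each gene's own 14-stage mean was 0.34 at E11.5, lay between -0.42 and -0.24 from E13.5 to E17.5, rose to 0.19 at E18.5, was near 0 at Day0 (-0.01) and Day3 (-0.09), reached 0.59 at Day7 and came down to 0.09 in the adult. The median over all genes stayed between -0.06 and 0.02. Of the 90 members 51 had their highest value at Day7, against 12.9% of all genes, and 40 had their lowest at E13.5, against 3.46%.

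**Figure D1:**
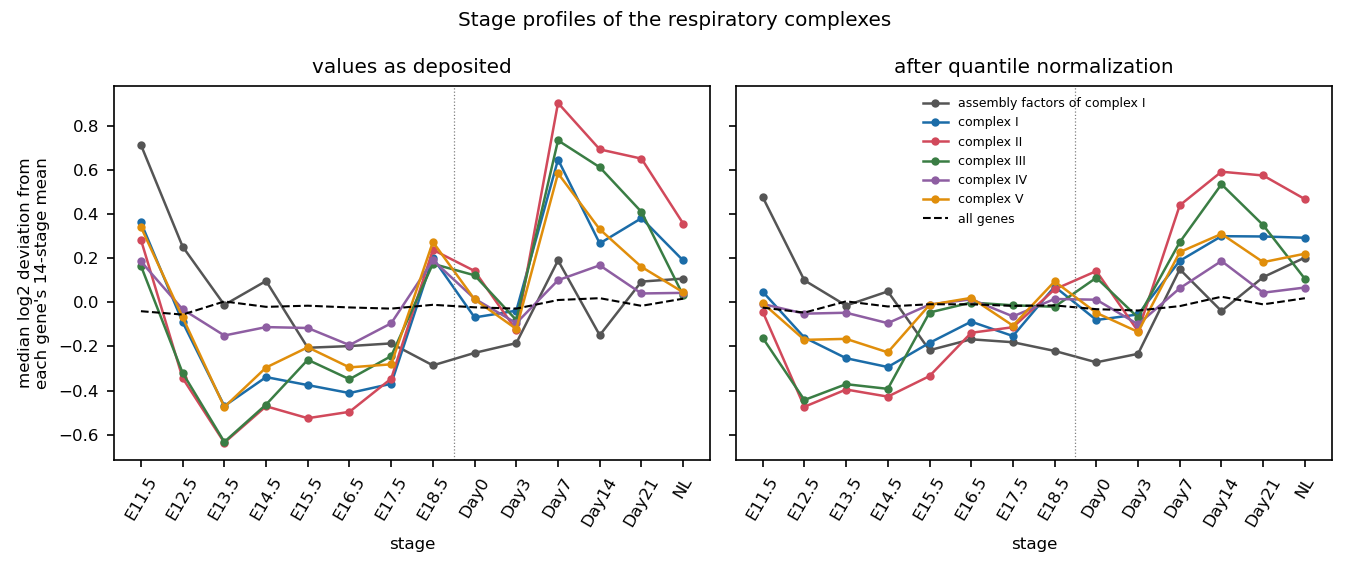
Median log2 deviation of each complex's members from their own 14-stage means (y axis) by stage (x axis), for values as deposited (left) and after quantile normalization of the 25 arrays (right); the dashed line is the median of all genes and the dotted line marks birth. Complexes I, II, III and V peak at Day7 on the left, complex II at 0.91, and at Day14 on the right, complex II at 0.59.

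The common movement ran alongside the brightness of the arrays. In mean intensity 71 of the 90 members lay above the 90th percentile of all genes. Stages with 2 arrays give this within a single pool: at Day0 the members were higher on array 1 by a median of 0.52 (all genes, 0.07), at Day3 by 0.44, and in the adult the difference was -0.33. The 95th percentile of all probe sets differed between the same arrays, 9.41 against 9.03 at Day0. It was also high at E11.5 (9.61 and 9.48) and at Day7 (9.60), the stages with the highest member medians. The match was incomplete: Day14 had a member median of 10.54 at a 95th percentile of 9.01, and the first E12.5 array 10.17 at 9.50. After quantile normalization, which gives all arrays the same distribution, the E11.5 median was 0.03, the Day7 median 0.21 and the highest, at Day14, 0.28. There 38 members peaked at Day14 in place of Day7, against 14.1% of all genes. The lowest value was at E13.5 for 7 members and at E14.5 for 19 (all genes 3.17% and 4.14%). On that scale E12.5 to E15.5 lay between -0.20 and -0.10 and Day7 to the adult between 0.20 and 0.28. Under both scalings the median was below 0 from E12.5 to E17.5 and above 0 from Day7 on. Counts of calls below are for the deposited scale unless quantile normalization is named.

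**Figure D2:**
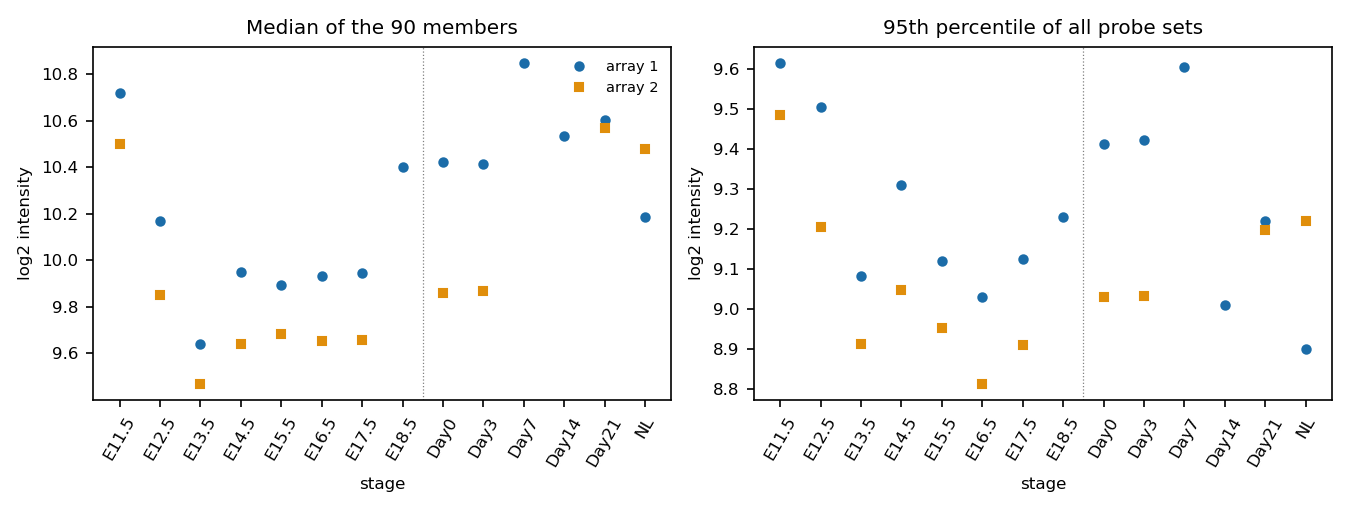
Median log2 intensity of the 90 members (left) and 95th percentile of all 45101 probe sets (right) on each array, by stage; circles are array 1 and squares array 2 of the same pool, and the dotted line marks birth. At Day0 array 1 lies above array 2 in both panels, at 10.42 against 9.86 for the members.

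Between fetal and postnatal livers, 18 of the 90 members were lower in the 8 fetal pools and 1 was higher (limma; the adjustment of p ran across the 18194 genes, threshold 0.05). Over all genes 10.5% were called lower and 9.82% higher. The lower count was 24 after quantile normalization (all genes 11.2%) and 61 with arrays scaled to housekeeping genes. The mean of those 13 genes was itself not steady, at 11.16 at E11.5 and 10.28 in the adult, so that scale lowers fetal values against later ones. With it the median deviation over all genes ran from -0.46 at E11.5 to 0.48 in the adult, so the count of 61 is not particular to the members. On the deposited scale the lower count was 31 without E11.5 or without E18.5, 47 without both, and 8 without Day7, Day14 or Day21. The members' median change, fetal minus postnatal, was -0.31 (all genes -0.01), and 80 of 90 had a negative sign. Complex I gave 11 of its 36 subunits, complexes II, III and V gave 2 each of 4, 8 and 17, complex IV gave 1 of 17, and the 8 complex I assembly factors gave none. Erythroid marker genes fell over the same interval, from a list mean of 10.93 at E15.5 to 6.13 in the adult, with 9 of 10 called higher in fetal pools, and 6 of 8 hepatocyte markers were called lower there; their part in the members' change was not tested. In such bulk RNA, fewer cells of a type and less RNA per cell cannot be told apart.

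Complex II oxidises succinate in the citric acid cycle and passes the electrons to coenzyme Q. Sdhb, its iron-sulfur subunit, ran from 9.26 through a median of 9.52 to 10.43 over the fetal stages and from 10.15 through 10.87 to 11.33 after birth. The classes overlapped only because E11.5 (10.43) and E18.5 (10.29) lay above Day3 (10.15); the other 6 fetal stages did not exceed 9.69. The change was -1.14 ± 0.23 (SE; adjusted p = 0.0050, limma), a 2.20-fold lower fetal level, and the call held under each of the 26 alternatives tried. Sdha, the catalytic flavoprotein, ran from 10.01 through 10.25 to 10.68 in fetal and from 10.42 through 11.00 to 11.62 in later pools, with a change of -0.66 ± 0.18 (adjusted p = 0.023). The membrane anchors gave -0.63 ± 0.23 (Sdhc, adjusted p = 0.068) and -0.41 ± 0.20 (Sdhd, adjusted p = 0.17), below the threshold.

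Complex III moves electrons from coenzyme Q to cytochrome c. Uqcrq, one of its small subunits, ran from 9.51 through 9.92 to 10.70 before birth and from 10.66 through 11.23 to 11.74 after it, where E18.5 (10.70) and Day0 (10.66) crossed by a narrow margin. Its change of -1.29 ± 0.20 (adjusted p = 0.0012, limma) was the largest decrease among the members. It rests on a probe set that can share sequence with other transcripts; the other 3 Uqcrq probe sets were dim, with stage means at or under 6.46, and the set used when such shared sets are left out gave -0.03. Uqcrb, another small subunit, changed by -0.48 ± 0.14 (adjusted p = 0.027).

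In complex I, the entry point for NADH, the largest decreases were those of Ndufs4 and Ndufa6. Ndufs4, an accessory subunit of the electron input arm, ran from 7.87 through 8.12 to 8.63 in fetal and from 8.46 through 8.75 to 9.82 in later pools, a change of -0.79 ± 0.21 (adjusted p = 0.015, limma). Ndufa6 ran from 8.67 through 9.08 to 9.72 and from 9.55 through 9.93 to 10.27, a change of -0.79 ± 0.16 (adjusted p = 0.0048). In each of these genes only E11.5 or E18.5 reached the postnatal range.

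In complex V, the ATP synthase, Atp5j changed by -0.59 ± 0.19 (adjusted p = 0.045, limma) and Atp5l by -0.54 ± 0.18 (adjusted p = 0.049), and both calls were lost under 15 of 26 alternatives. Complex IV, the oxygen-reducing oxidase, had a median change of -0.09, against -0.37 for complex I, -0.64 for complex II and -0.47 for complex III. Its only lower call was Cox6c (-0.51 ± 0.16, adjusted p = 0.037, limma), which was also lost under 15 of 26 alternatives. Cox4i2, Cox7a1, Cox7b2 and Cox8b were dim at all stages. The complex IV median takes in these sets and Cox6b2, which moved the other way, and leaves out Ndufa4, counted under complex I. It is therefore not a like measure to the medians of the other complexes. Cox4i1 and Cox6a1 had fetal stage medians of 11.78 and 12.38, against 12.09 and 12.67 after birth. For Cox7a2 and Cox8a they were 11.82 and 10.64, against 11.96 and 10.73. When each array was instead set to the median of the 90 members, 2 genes stayed lower in fetal livers than the members as a whole and 11 were higher.

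**Figure D3:**
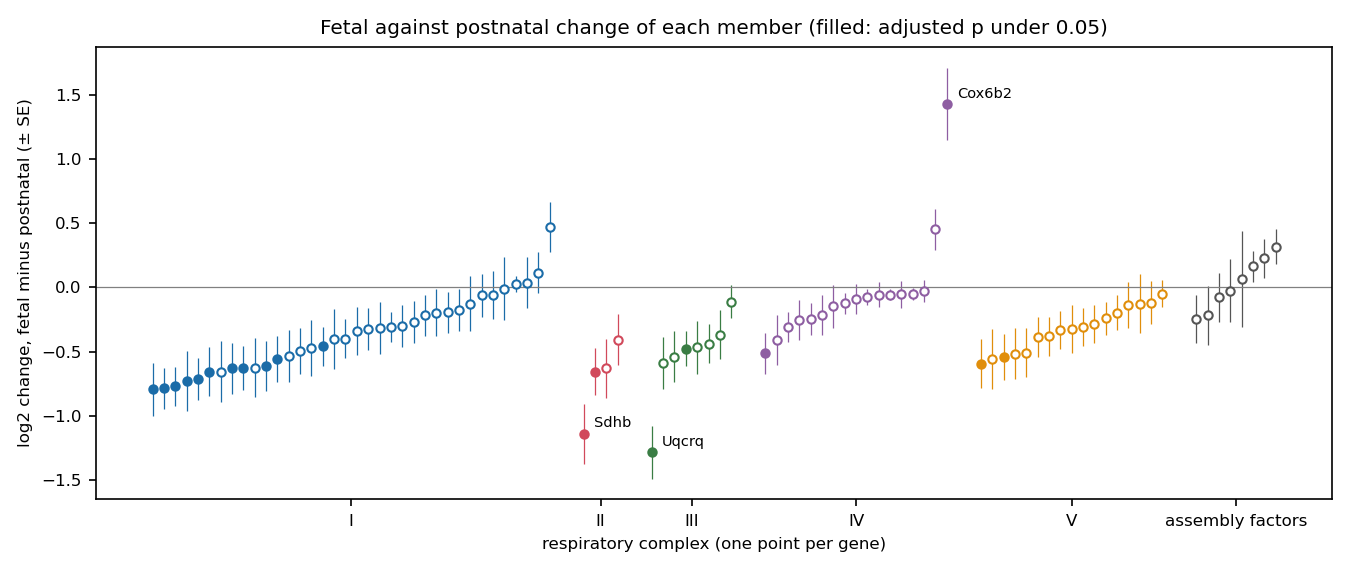
Log2 change, fetal minus postnatal, of each of the 90 members with its standard error (y axis), grouped by complex on the x axis and sorted within it; filled points passed an adjusted p under 0.05 (limma). Most points lie below 0, Sdhb at -1.14 and Uqcrq at -1.29 stand lowest, and Cox6b2 stands alone at 1.43.

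Cox6b2 was the only member called higher in fetal livers (after quantile normalization the dim Cox7c set was called too), and the only 1 of the 90 whose 14 stages did not overlap between the classes, which held for 4.09% of all genes. It encodes the isoform of the cytochrome c binding subunit VIb that is best known from testis. Its fetal values lay between 8.03 (E16.5) and 8.45 (E12.5). After birth it came down stage by stage, from 7.69 at Day0 through 7.47, 7.28, 6.94 and 6.14 to 5.53 in the adult. The fetal minus postnatal change was 1.43 ± 0.28 (adjusted p = 0.0041, limma), a 2.70-fold difference, with the call held under 26 of 26 alternatives. From Day0 (7.80 and 7.58) to Day21 (5.96 and 6.32) it fell by 1.55 ± 0.16 (adjusted p = 1.6e-06), and from there to the adult (5.73 and 5.34) by a further 0.61 ± 0.16 (adjusted p = 0.029). The last step lost its call in 5 of 14 alternatives.

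Isoform pairs were compared within each array as the log2 difference of the 2 probe sets, of which only the change has a meaning. A factor common to a whole array cancels in it, but one that depends on intensity does not cancel between a bright and a dim set. Of 10 pairs, 3 passed an exact two-sided permutation test over the 14 stages (3003 arrangements, Benjamini-Hochberg over the 10 pairs). The test treats the stages as exchangeable, so it cannot tell a difference between the classes from a trend with age. For Cox6b1, the widely expressed isoform, over Cox6b2, the difference lay between 3.07 and 4.05 in fetal and between 4.18 and 6.18 in later pools, a fetal minus postnatal shift of -1.69 (exact permutation p = 0.000333, the smallest this design can give, adjusted p = 0.0033). The classes did not overlap, and over 19 alternatives, quantile normalization among them, the shift lay between -1.89 and -1.49. Cox6b1 itself gave -0.26 ± 0.15 (adjusted p = 0.27, limma), against 1.43 ± 0.28 for Cox6b2.

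Ndufa4 over Ndufa4l2, its paralogue known for induction by hypoxia, shifted by -1.24 (exact permutation p = 0.000666, adjusted p = 0.0033), again with no overlap and with a range of -1.34 to -1.10 over the alternatives. Ndufa4 was lower before birth, from 9.80 through 9.998 to 10.69 against 10.59 through 10.89 to 11.26 later, a change of -0.77 ± 0.15 (adjusted p = 0.0040, limma). Ndufa4l2 lay at 5.59 at E13.5, climbed to 6.38 at E16.5 and 6.96 at E17.5, stood at 6.54 at E18.5 and returned to 5.83 at Day0 and 5.65 at Day3; its fetal minus postnatal change of 0.47 ± 0.19 did not pass (adjusted p = 0.10). Its postnatal stages, all below 6, are near the floor of the arrays, so the postnatal ratio is less certain than the fetal.

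Atp5g1 over Atp5g2, which encode the same mature c-ring subunit of complex V, shifted by -0.43 (exact permutation p = 0.0077, adjusted p = 0.026), with overlapping classes. This pair no longer passed under 6 of 19 alternatives. The difference was -0.67 to -0.17 in fetal pools and rose from -0.36 at Day0 to 0.65 at Day21. The other 7 pairs did not pass, with adjusted p from 0.12 to 0.90 in the same exact permutation test. They were Cox4i1 and Cox4i2 (shift -0.17), Cox6a1 and Cox6a2 (-0.28), Cox7a2 and Cox7a1 (-0.02), Cox7a2 and Cox7a2l (0.07), Cox8a and Cox8b (0.04), Atp5g1 and Atp5g3 (-0.18), and Atp5g2 and Atp5g3 (0.26). The partners Cox4i2, Cox7a1 and Cox8b, isoforms of lung or of heart and skeletal muscle, never reached 6, so that their part of a ratio is near the floor of the arrays.

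**Figure D4:**
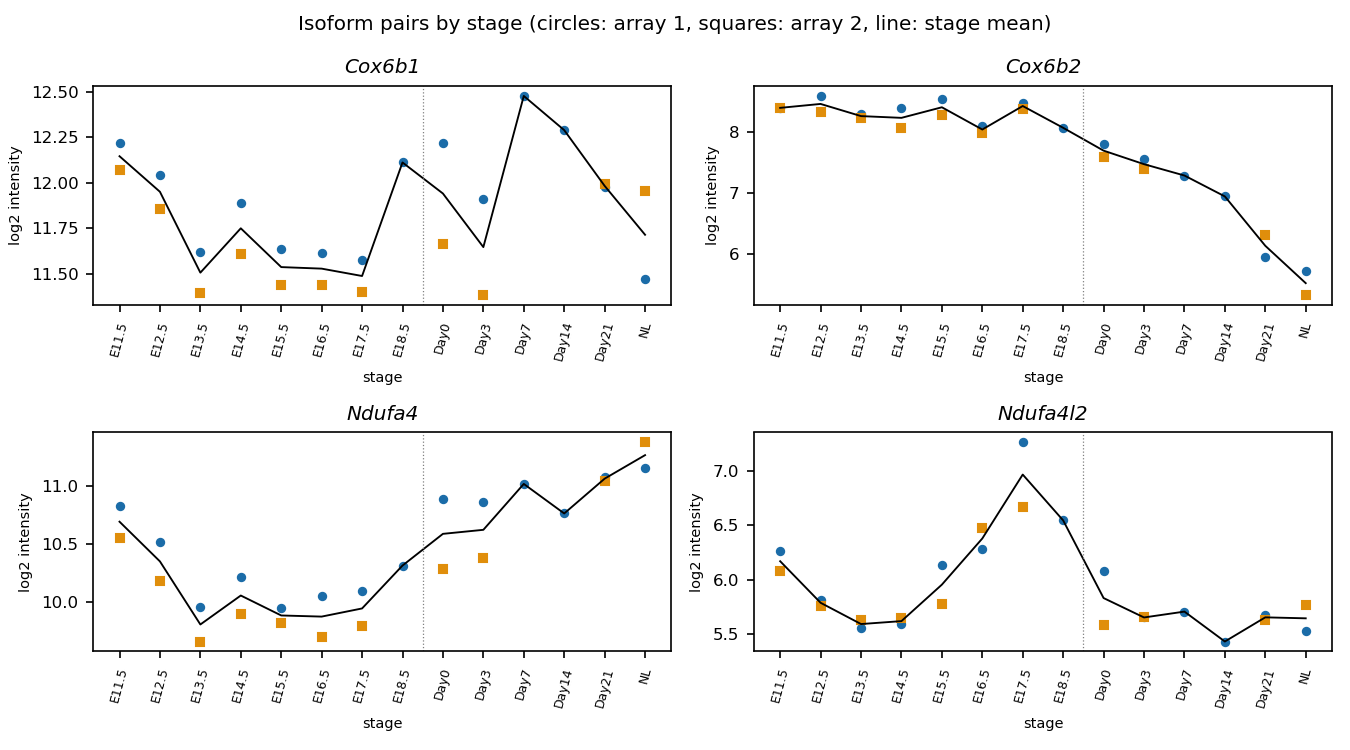
Log2 intensity of Cox6b1, Cox6b2, Ndufa4 and Ndufa4l2 on each of the 25 arrays by stage; circles are array 1, squares array 2, the line joins stage means and the dotted line marks birth. Cox6b2 declines from 8.06 at E18.5 to 5.53 in the adult, and Ndufa4l2 has its highest stage mean, 6.96, at E17.5.

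Over the fetal course, 7 members fell from E11.5 to E18.5 and 1 rose in a linear fit (limma), where 19% of all genes fell and 10.7% rose. Of the 7, 5 were complex I assembly factors, so that 5 of those 8 fell, against 2 of 36 complex I subunits and none of complexes II, III, IV and V. Ndufaf4, an assembly chaperone, fell by 2.02 ± 0.37 over the span (adjusted p = 0.0058). Its stage means were 9.39, 9.74, 9.35 and 9.62 from E11.5 to E14.5 and 8.27, 8.12, 8.13 and 7.79 from E15.5 to E18.5, 2 plateaus with the drop between E14.5 and E15.5. Ndufaf1, which acts on early intermediates, fell by 1.33 ± 0.31 (adjusted p = 0.015); it stood at 7.77 at E11.5, between 6.85 and 7.27 up to E17.5 and at 5.81 at E18.5. The others were Ndufaf8, Ndufaf5 and Ndufaf3, between -1.12 and -0.76. Ndufaf5 was dim, with fetal stage means between 5.43 and 6.40.

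A further 2 complex I members fell, Ndufb1 by 0.998 ± 0.13 (adjusted p = 0.0016, limma) and Ndufb7 by 0.75 ± 0.22 (adjusted p = 0.036). The Ndufb1 set was dim, with fetal stage means between 5.55 and 6.58. Cox7a1 rose by 0.38 ± 0.12 (adjusted p = 0.040), though between 4.48 and 4.94, at the floor. Of the 36 assembly factors of other names, 17 fell in the fetal course and none rose, led by Cox15 (-1.87 ± 0.44), which makes heme a, and Cox11 (-1.74 ± 0.31), a copper chaperone. Over the same span 7 of 8 hepatocyte markers (median 3.58) and 11 of 12 granulocyte and macrophage markers (3.54) rose, and 4 of 9 cell division genes fell; their part in the decreases was not tested. After quantile normalization 8 members fell, 4 of them complex I assembly factors, and 2 rose, both of complex I (all genes 14.9% and 11.3%). The fetal ends weigh heavily: without E18.5 the count of falling members was 22, and without E11.5 it was 4.

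At birth, from E18.5 to Day0, 2 members rose and 4 fell, where 13.1% of all genes rose and 12.1% fell (limma on 25 arrays). Ndufaf4 had 7.79 on the E18.5 array and 10.01 and 9.65 on the Day0 arrays, an increase of 2.04 ± 0.17 (adjusted p = 1.0e-06), or 4.12-fold. Both Day0 arrays lay above each of the arrays of Day3 (stage mean 8.23) and Day7 (8.05). A second Ndufaf4 probe set followed the same course, with 5.45 at E18.5, 7.50 at Day0 and 5.94 at Day3. The increase was 1.70 ± 0.14 when E17.5, which has 2 arrays, took the place of E18.5, and it was called in all 13 alternatives.

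Ndufaf1 rose by 1.09 ± 0.21 (adjusted p = 0.0013, limma), from 5.81 to 6.94 and 6.86, but against E17.5 (6.97 and 6.79) the difference was 0.02: the E18.5 array alone was low. Ndufa4l2 fell by 0.71 ± 0.22 (adjusted p = 0.028), from 6.54 to 6.08 and 5.58. Ndufv3 fell by 0.62 ± 0.19 (adjusted p = 0.024) and Ndufs5 by 0.51 ± 0.14 (adjusted p = 0.017). Cox8b, an isoform of heart and skeletal muscle, fell by 0.55 ± 0.13 (adjusted p = 0.0078), from 5.85 to 5.34 and 5.26. Against E17.5 the changes of Ndufs5 and Cox8b were 0.13 and 0.01, and Ndufv3 was not called. Its call was lost under 5 of 13 alternatives. Markers of skeletal muscle were also high at E18.5, with a list mean of 6.88 against 5.24 to 5.59 at the other stages, and 12 of 13 fell at birth; Acta1 stood at 9.56 there and 5.41 at Day0. Their part in the Cox8b value was not tested. After quantile normalization 6 members rose and 22 fell at this step, where 14.6% and 17.4% of all genes did.

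Assembly factors outside the Nduf names rose at birth in 15 of 36 cases and fell in 2. Cox11 rose by 1.64 ± 0.25 and Sco2, which delivers copper to complex IV, by 1.38 ± 0.20 (adjusted p = 0.00028 and 0.00018, limma); Uqcc2 fell by 0.88 ± 0.24 and Pet100 by 0.50 ± 0.15. With E17.5 in place of E18.5, 7 rose and 2 fell, where 8.40% of all genes rose; Sco2 then rose by 1.95 ± 0.16, while Cox11 did not pass (0.50 ± 0.21, adjusted p = 0.15).

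From Day0 to Day21, 21 members rose and 2 fell, where 11.2% of all genes rose and 15.5% fell (limma). Complex I gave 11 of 36, complex V 4 of 17, complexes II and III 2 each and the assembly factors 2 of 8; none of complex IV rose on this scale. After quantile normalization 50 members rose and 7 fell (all genes 15.2% and 16.8%), with increases of 24 in complex I, 3 in complex II, 4 in complex III, 4 in complex IV, 10 in complex V and 5 among the assembly factors. Over the same step all 10 erythroid and all 9 cell division markers fell, with median changes of -3.50 and -2.31, as did 8 of 12 granulocyte and macrophage markers (median -3.70), while no hepatocyte marker was called; their part in the increases was not tested. Ndufa13, a subunit also studied as the cell death regulator GRIM-19, had 10.40 and 9.80 at Day0 and 11.35 and 11.18 at Day21, an increase of 1.17 ± 0.25 (adjusted p = 0.0020). Ndufv1, which binds NADH, had 10.19 and 9.66 and then 10.91 and 10.94, an increase of 1.001 ± 0.23 (adjusted p = 0.0032). For both genes the 2 stages did not overlap.

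Uqcr11 of complex III rose by 0.87 ± 0.18 and Uqcrq by 0.73 ± 0.23, and in complex V Atp5g1 rose by 0.79 ± 0.17 and Atp5j by 0.73 ± 0.23. Sdhb rose by 0.66 ± 0.23 and Sdha by 0.64 ± 0.21, while Sdhc (0.72, adjusted p = 0.055, limma) and Sdhd (-0.06, adjusted p = 0.91) did not pass. Among the assembly factors Ndufaf6 rose by 0.995 ± 0.12, from 6.44 and 6.40 to 7.48 and 7.35, and Ndufaf3 by 0.51 ± 0.15, while Ndufaf4 fell by 0.93 ± 0.14 (adjusted p = 7.6e-05) to 8.88 and 8.93. The count of increases was 33 without the brighter Day0 array and 7 without the dimmer, and 9 or 10 without either Day21 array.

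From Day21 to the adult, Cox6b2 was the only member called, where 4.72% of all genes fell and 2.16% rose (limma). The members' median change was -0.15, with 76 of 90 below 0. The adult arrays differed by -0.33 in the members' median; after quantile normalization the median was -0.03, with 3 members called higher and 9 lower (all genes 5.67% and 8.47%). Over the whole postnatal course from Day0 to 18 weeks no member was called, as 0% of all genes were higher and 0% lower at this threshold in 6 pools; at an unadjusted p under 0.05 there were 4 members and 2540 genes.

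Further genes of the pathway were taken from 5 lists, whose fetal against postnatal counts are to be read against the shares of all genes, 9.82% higher and 10.5% lower. Etfdh, which passes electrons from fatty acid oxidation to coenzyme Q, was lower before birth, with a log2 change of -2.39 ± 0.37 (adjusted p = 0.0010, limma), with 7.34 at E11.5, 9.66 at E18.5 and 10.92 at Day7. Of the 12 genes of cytochrome c, electron transfer flavoprotein and ATP exchange, 4 were lower and 1 higher in fetal pools (4 and 3 after quantile normalization). The higher was Atpif1, the inhibitory factor of ATP synthase, at 2.04 ± 0.48 (adjusted p = 0.010). It held between 10.95 and 11.50 in all fetal stages, stood at 10.40 at Day0 and 10.16 at Day7, and reached 8.42 at Day14, 8.25 at Day21 and 7.00 in the adult. It fell by 0.71 at birth, by 2.14 to Day21 and by 1.25 to the adult, each past the threshold; against E17.5 the birth change was -0.56 ± 0.20 and did not pass (adjusted p = 0.086, limma).

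Slc25a4, the ADP/ATP carrier isoform typical of heart and muscle, varied over a wide range: 10.96 at E11.5, 8.68 at E15.5, 11.62 at Day0, 8.47 at Day21 and 4.89 in the adult. It rose by 1.38 ± 0.30 at birth and fell by 3.15 ± 0.24 to Day21 and by 3.58 ± 0.24 to the adult (adjusted p = 1.0e-07 for the last step, limma). Slc25a5, the widely expressed carrier, lay between 10.84 and 11.99. It was not called on the deposited scale (0.27 ± 0.27 at birth, adjusted p = 0.53, limma), but it was called higher at birth after quantile normalization (0.46 ± 0.09) and against E17.5 (0.83 ± 0.22). No call on the deposited scale was made for Cycs, cytochrome c itself, which lay between 11.40 and 12.46.

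Regulators changed in both directions, with 5 of 17 higher and 3 lower in fetal livers. Ppargc1a, the coactivator PGC-1 alpha of mitochondrial biogenesis and gluconeogenesis, stood between 4.72 and 5.24 in the fetal stages. Its Day0 arrays read 7.75 and 7.95, an increase over E18.5 (5.23) of 2.62 ± 0.16 (adjusted p = 7.8e-08, limma), or 6.14-fold, and the increase over E17.5 was 2.61 ± 0.13. It was back at 5.27 at Day3, and reached 7.30 at Day14 and 8.17 at Day21 before 5.92 in the adult. Its fetal and Day3 values, all below 6, are near the floor of the arrays, so the size of the fold at birth is less certain. Ppargc1b rose at birth by 1.45 ± 0.15. Pprc1, a related coactivator linked to growth, took the opposite course, from 9.21 at E11.5 to 5.84 in the adult, higher in fetal livers by 1.68 ± 0.39. Ppara, the fatty acid sensing receptor, was lower in fetal livers (-1.76 ± 0.31). Tfam, which packages mitochondrial DNA and activates its transcription, fell by 1.48 ± 0.19 in the fetal course (adjusted p = 0.0017, limma), without a call at the later steps.

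In the citric acid cycle and pyruvate dehydrogenase list, 5 of 17 genes were lower in fetal pools, among them Suclg1 (-1.43 ± 0.36) and Fh1 (-1.14 ± 0.23), and Cs, citrate synthase, was higher (0.96 ± 0.31). Fh1, whose product fumarase acts after complex II, rose at birth by 1.33 ± 0.29, from 9.42 to 10.75, and stood at 9.23 at Day3. Of 10 genes of coenzyme Q synthesis, 2 were lower in fetal livers, Coq9 (-1.34 ± 0.21) and Coq10b (-0.77 ± 0.18), and 3 rose at birth, Coq10b by 1.76 ± 0.20 and Coq7 by 1.52 ± 0.18. Sco2 was the largest of the 7 lower calls among the other 36 assembly factors, at -2.53 ± 0.27 (adjusted p = 0.00015, limma), from 5.70 at E16.5 to 9.72 at Day14; Coa7 followed at -1.16 ± 0.23, and Cox17, a copper carrier, was the single higher call, at 0.94 ± 0.25.

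**Figure D5:**
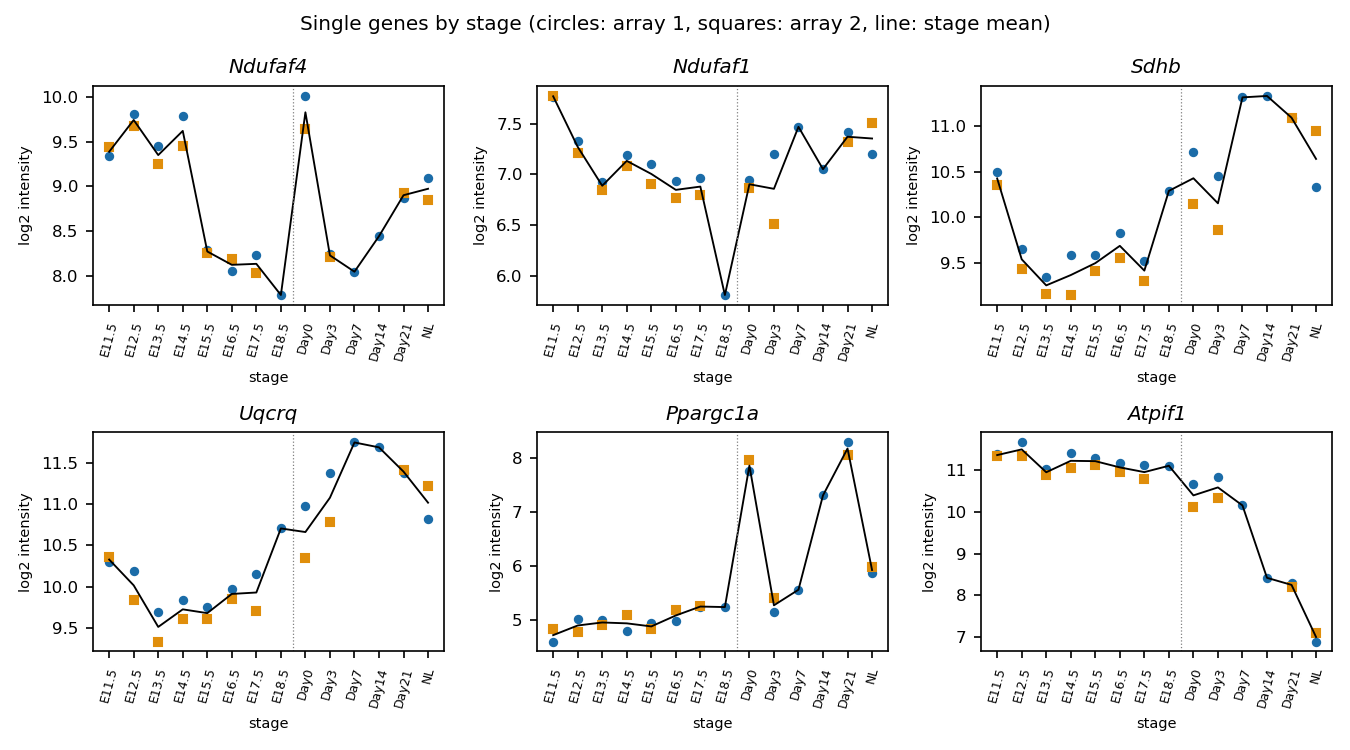
Log2 intensity of Ndufaf4, Ndufaf1, Sdhb, Uqcrq, Ppargc1a and Atpif1 on each of the 25 arrays by stage; circles are array 1, squares array 2, the line joins stage means and the dotted line marks birth. Ndufaf4 (9.83) and Ppargc1a (7.85) both stand high at Day0 and low at Day3, and Atpif1 falls to 7.00 in the adult.

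Ndufc1 (Pearson r = 0.970 over 14 stages) and Atp5g1 (0.968) lay nearest to the members' median profile. Among genes outside the list, Higd2a, a hypoxia-inducible domain protein of complex IV supercomplexes, had the highest correlation (r = 0.953), followed by Dynlrb1 and Pomgnt1 (0.951 each); these points share the arrays and their brightness. At the other end 5 members never reached a stage mean of 6: Cox4i2, Cox7a1, Cox7b2, Cox8b and Ndufb4. Ndufb4 and Cox7c, whose products are subunits of their complexes, were represented only by dim probe sets, so that their values here say little about the genes.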

How the data were processed

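Total RNA of pooled livers was reverse transcribed, labelled with biotin and hybridised, per the labels' protocols. The authors deposited linear intensity values of 45101 probe sets on 25 arrays, made with RMA per the submitters' processing notes; the sources used here do not state its version or scaling. The design assumed log2 values and the deposited ones are linear, so log2 was taken before any test. Probe sets were named from the platform annotation (34958 with 1 symbol), and each of 18194 genes took its brightest set over the 14 stages. The 90 members had 179 sets.

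Repeat arrays were averaged. Fetal against postnatal, fetal course and postnatal course were fitted to stage means, and steps to all arrays, with limma 3.58.1 (lmFit, eBayes) in R 4.3.3. A gene was called where its p, adjusted by Benjamini-Hochberg across all genes, was under 0.05. Repeats are technical, so p-values of the steps measure technical spread only; scripts were tested on simulated data. The number of arrays limits the precision.

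The members, gene lists, tests and the rule for named genes (the 2 largest called changes per direction of each complex or list, all isoform pairs, complex II, 6 fixed genes, and the 3 other genes of most similar profile) were chosen with earlier results of these data known. Alternatives covered scaling, probe set choice, dim genes, variance model, fold minimum, stages and single arrays.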

Additional observations from a re-analysis of the deposited data

Results flagged for a closer look

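Dixon's test, which flags about 1 in 20 groups by chance, was run on 118 groups of stage values. They came from 53 genes and from the medians of the complexes and of the assembly factors. In 6 groups, all of single genes, a stage stood far from the others of its class. At E11.5, Cox7a2l stood at 10.34 (next fetal stage 9.81), Cox8a at 11.28 (10.75) and Ndufaf6 at 7.37 (6.57). At E18.5, which has 1 array, Cox8b stood at 5.85 (next 5.30) and Ndufaf1 at 5.81, below the next lowest, 6.85. Ndufa8 reached 10.55 at Day7, also with 1 array, where the next postnatal stage had 10.01.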

How the results depend on the processing

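For the lower fetal level of members, 18 on the deposited scale, the count was 61 with arrays scaled to housekeeping genes, 11 with an intensity trend in the variance, 2 with a 2-fold minimum, 8 over stages with 2 arrays, 47 without E11.5 and E18.5, and 2 relative to the members' median; the count of higher members, 1, was 2 after quantile normalization, without dim genes and without E11.5 and E18.5, and 11 relative to the members' median. The last 2 settings were chosen after seeing the data. For the fetal course, the count of rising members was 0 with array medians, without dim genes, with a 2-fold minimum, relative to the members' median, on first arrays alone and over stages with 2 arrays, 2 after quantile normalization and without shared probe sets, 3 with the trend and 9 with housekeeping genes. Falling members numbered 4 with housekeeping genes, 3 with a 2-fold minimum, 1 relative to the members' median, 22 over stages with 2 arrays and 11 without E11.5 and E18.5. For the postnatal course 1 member was lower relative to the members' median. At birth, increases numbered 6 (quantile), 4 (mean of all probe sets), 4 (relative to the members' median) and 7 (against E17.5), and decreases 22 (quantile), 19 (housekeeping), 0 (2-fold minimum), 1 (relative) and 2 (against E17.5). From Day0 to Day21, increases numbered 50 (quantile), 82 (housekeeping), 2 (2-fold minimum) and 6 (relative), and decreases 7, 1, 1 and 28. In the adult, increases numbered 3 (quantile) and 2 (relative), and decreases 9 (quantile), 7 (housekeeping), 2 (without shared probe sets), 2 (without dim genes), 0 (2-fold minimum) and 0 (relative). The housekeeping scale moved with age, and from Day0 to Day21 11 of its 13 genes had negative changes (median -0.19). The causes were not tested.

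In the check of pairing, same-numbered repeat arrays deviated together (r over 0.1) in 40 of 55 stage pairs (median r 0.42, lowest -0.64), not in all, and the members were higher on array 1 in 10 of 11 stages; the numbers were not taken to pair samples. With the numbers as a replicate block, decreases numbered 10 at birth, increases 33 to Day21 and decreases 4 to the adult.

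Leaving out 1 stage gave 1 to 2 higher and 8 to 31 lower members between fetal and postnatal pools (31 without E11.5 or E18.5, 8 without Day7, Day14 or Day21), and 0 to 6 rising and 4 to 22 falling in the fetal course (6 and 4 without E11.5, 22 falling without E18.5). Without 1 array the counts were 2 to 3 and 2 to 12 at birth (12 without Day0 array 1, 2 without array 2), 7 to 33 and 2 to 3 to Day21, and 0 to 1 and 0 to 2 to the adult. Of the isoform pairs 2 to 4 passed. Over the single genes and the isoform pairs, 1323 values stayed on the same side of the threshold, 305 lost the call and 34 gained one. Sign was counted only where the main or the alternative value was called, and there 4 values changed sign. Ndufb11, fetal against postnatal, went to 0.0019 and Ndufa5, Day0 to Day21, to -0.032, both relative to the members' median. Against E17.5, Cox8b went to 0.0067 and Ndufs5 to 0.13. Values without a call could change sign within the 1323, as Atp5g2 did between fetal and postnatal pools (-0.42 to 0.34). Dim probe sets and stages with 1 array limit what can be detected.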
